A study of Mus musculus with 6 samples.

Results

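The kinesins are microtubule motor proteins, and their genes were followed here in control and senescent mouse adult fibroblasts (MAFs). All protein-coding genes whose name begins with *Kif* and continues with a digit or a c were taken, without *Kifap3* and *Kifbp*, which are not motors. This gave 41 of the 43346 genes in the count table. They were split into 10 kinesins of the mitotic spindle and of cytokinesis (*Kif11*, *Kif14*, *Kif15*, *Kif20a*, *Kif23*, *Kif2c*, *Kif4*, *Kif18a*, *Kif22* and *Kifc1*) and the 31 others. The split follows what the proteins are known to do and uses no value of these data, although it was chosen with earlier results of the same libraries known.

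MAFs are primary cells taken from ear tissue of adult female C57BL6/J mice and grown at 3% oxygen, and they were used from passage 3 to 8. The 3 control samples were sham irradiated. The 3 senescent samples received 20 Gy of X-rays and were kept for 21 more days. All 6 received 100 nM dexamethasone for 2 hours to synchronize their clocks and were collected 12 hours later, so both groups share the steroid treatment and a single time point. How long the control cells were kept after the sham irradiation is not given in the sources used here, so radiation and time in culture cannot be told apart. Whether replicates came from separate animals or cultures is not given either, and p-values measure only the spread between these samples.

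A kinesin motor domain hydrolyses ATP to walk along a microtubule, or, in some families, to take the microtubule apart at its end. Transport kinesins carry vesicles, mitochondria and RNA, mostly towards the cell periphery, while mitotic kinesins separate the spindle poles, align chromosomes and build the midzone that divides the cell. Many mitotic kinesin genes are transcribed late in the cell cycle, and senescent cells are defined by having left the cycle.

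The libraries held between 50288454 and 82229553 counts, and a level of 3 counts corresponded to between 0.0355 and 0.0613 CPM. Levels are CPM, counts scaled to a common library size by TMM, and log2 fold changes are senescent over control, with their standard error (SE). Adjusted p-values come from the quasi-likelihood test in edgeR, corrected by the Benjamini-Hochberg method over the 17589 genes tested. *Mki67*, a marker of cycling cells, had a mean level of 589 ± 17.3 CPM in the controls against 9.6 ± 1.49 CPM after irradiation (SD, n = 3). The means of *Cdkn1a*, which encodes the cell cycle inhibitor p21, were 123 ± 2.01 and 619.5 ± 16.3 CPM. Fibroblast markers summed to 63764 to 65730 CPM in control and 47958 to 53450 CPM in senescent libraries, most of it from *Fn1*, fibronectin (45655 ± 414 and 43858 ± 2275 CPM). Of the 10 markers 5 were lower, among them *Col1a1* (4435 ± 512 to 763 ± 212 CPM) and *Col3a1* (3896 ± 115 to 971 ± 93.3 CPM), and 3 were higher, among them *Dcn* (56.6 ± 0.377 to 643 ± 65.2 CPM). Their part in the kinesin results was not tested. Chondrocyte markers, 5 of 5 tested lower in senescent cells, summed to 4705 to 5233 CPM in control and 335 to 418 CPM in senescent libraries, and their part in the kinesin results was not tested. For these marker counts, 34.1% of all tested genes were lower and 36.2% higher. Among senescent libraries, replicate 3 lay farthest out, with root mean square log2 distances of 0.386 and 0.400 to the others, which were 0.258 apart. The control libraries were 0.337 to 0.367 from one another, not far below the distances of senescent replicate 3. Results that turn on senescent replicate 3 are also given without it. In bulk RNA, fewer cells of a type and less RNA per cell cannot be told apart.

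Every kinesin of the mitotic list was lower in senescent cells, while the other kinesins moved in both directions (plot of the 40 fold changes). Of the 40 kinesins tested, 23 were lower at an adjusted p under 0.05, where 34.1% of all tested genes were, and 12 were higher, where 36.2% of all tested genes were. With the limits the study's methods give, an unadjusted p under 0.05 and a change of more than 2-fold, 17 kinesins were lower against a background of 12.3% and 6 were higher against 17.8%. The 3 control and 3 senescent values did not overlap for 35 of the 40, or 87.5%, a separation seen for 75.3% of all tested genes. The 10 mitotic kinesins were all lower and had a median log2 fold change of -4.86, beside 0.01 over all tested genes. Of the 30 other kinesins tested, 13 were lower, 12 were higher and 5 passed in neither direction, with a median of 0.02. Their shares of 43.3% lower and 40% higher are not far from the background, so the counts of calls alone do not set them apart from other genes. The remaining member, *Kif2b*, a microtubule depolymerase gene, had at most 1 count in a library and was not tested. Without senescent replicate 3, the mitotic count stayed at 10 lower, and the others came to 13 lower and 14 higher.

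**Figure D1:**
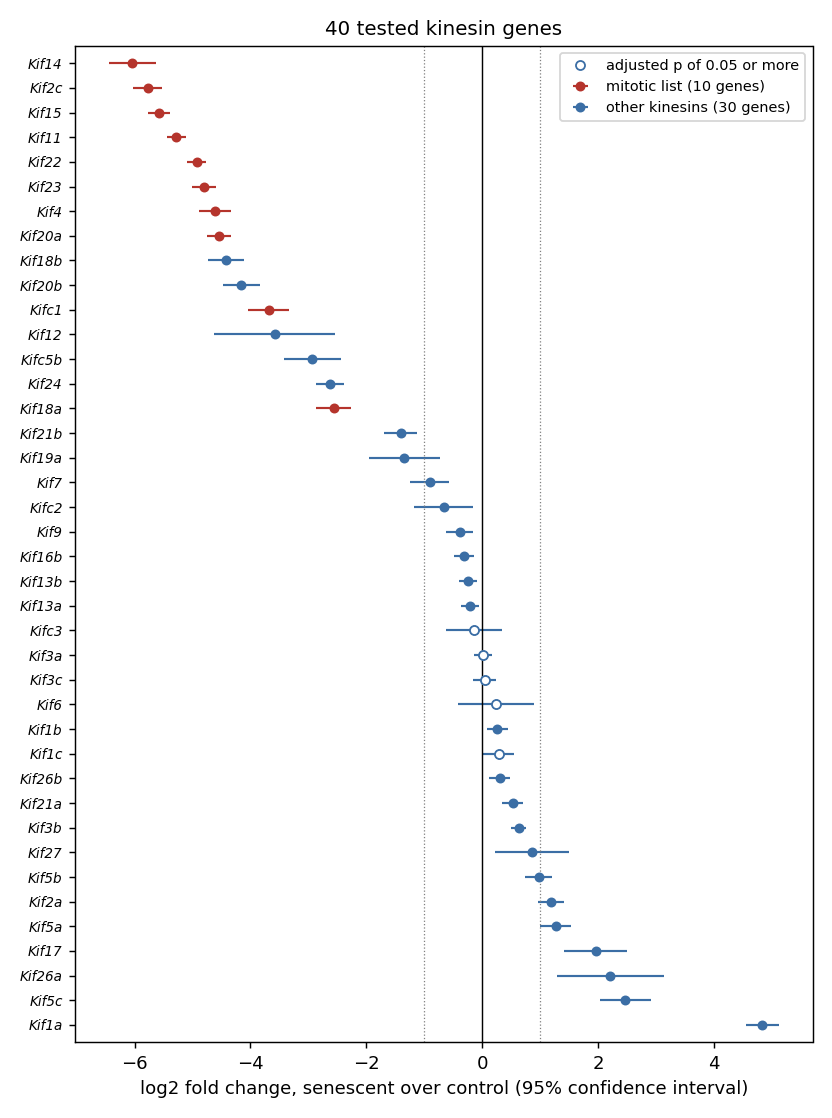
Log2 fold change of each of the 40 tested kinesins, senescent over control, with its 95% confidence interval; red points are the mitotic list, blue points the other kinesins, open points did not pass an adjusted p of 0.05, and dotted lines mark 2-fold. All red points lie between -6.04 and -2.56, and blue points run from -4.42 to 4.84.

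The motors of the mitotic list that act on the distance between the spindle poles were all lower. *Kif11* encodes the kinesin-5 motor that slides antiparallel microtubules apart and so separates the poles. It stood at 146, 132 and 136 CPM in control replicates 1, 2 and 3 and at 3.52, 3.55 and 3.58 CPM in the senescent replicates in the same order. The senescent values were nearly equal to one another and far below the lowest control. Its log2 fold change was -5.28 ± 0.07 (SE, adjusted p = 8.43e-09), a mean CPM 38.9-fold lower. *Kif15*, a kinesin-12 motor that helps to hold a bipolar spindle open, read 65.1, 61.3 and 61.9 CPM in the controls and 1.28, 1.38 and 1.28 CPM in the senescent replicates. The groups were again well apart, with a log2 fold change of -5.58 ± 0.08 (SE, adjusted p = 8.43e-09). *Kifc1* encodes a kinesin-14, which walks to the minus end and draws microtubules together at the poles. Control levels were 51.2, 59.4 and 59.6 CPM and senescent levels 4.76, 5.05 and 3.46 CPM, without overlap. It fell less than *Kif11* and *Kif15*, with a log2 fold change of -3.69 ± 0.15 (SE, adjusted p = 3.83e-07), and senescent replicate 3 had its lowest value. *Kifc1* and *Kifc5b* are near-identical copies, 96.8% identical over 2312 bases of transcript, so their separate counts are uncertain. With their counts summed, the log2 fold change was -3.51.

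Motors that act on chromosomes and kinetochores fell over a wide range. *Kif2c* encodes MCAK, a kinesin-13 that does not walk but takes microtubules apart at centromeres, where it helps to correct wrong attachments. The controls had 72.8, 70.2 and 69.5 CPM and the senescent replicates 1.08, 1.29 and 1.47 CPM. The groups lay far apart, and the log2 fold change of -5.77 ± 0.11 (SE, adjusted p = 1.29e-08) made it the second largest decrease among the kinesins. *Kif22*, a chromokinesin that pushes chromosome arms outwards, gave 66.0, 67.0 and 65.0 CPM in control and 2.13, 2.25 and 2.13 CPM in senescent replicates. Values within each group were close, and the log2 fold change was -4.92 ± 0.07 (SE, adjusted p = 8.43e-09). *Kif22* has a pseudogene, *Kif22-ps*, 92.0% identical over 450 bases. *Kif4*, the other chromokinesin, also organises the midzone of the anaphase spindle. Its levels were 66.7, 66.2 and 64.1 CPM and 2.17, 2.76 and 3.04 CPM, with senescent replicate 3 highest of its group and still far below the controls. The log2 fold change was -4.61 ± 0.12 (SE, adjusted p = 4.3e-08), and 15.1% of its exon bases are shared with *Pdzd11* on the opposite strand. *Kif18a*, a kinesin-8 that damps the swings of chromosomes at the metaphase plate, was the mitotic kinesin with the smallest decrease. It was at 19.2, 19.9 and 17.9 CPM in control and 3.23, 2.68 and 3.74 CPM in senescent replicates, without overlap. Its log2 fold change was -2.56 ± 0.13 (SE, adjusted p = 1.2e-06), a mean CPM 5.91-fold lower.

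The motors of cytokinesis included both the kinesin with the highest level per length in control cells and the one with the largest decrease. *Kif20a* (MKLP2) carries Aurora B and its partners to the central spindle. Counts gave 179.7, 182 and 181 CPM in control and 7.34, 7.26 and 8.73 CPM in senescent replicates. The controls differed little from one another, senescent replicate 3 was the highest of its group, and the log2 fold change was -4.54 ± 0.09 (SE, adjusted p = 1.44e-08). In the annotation 29.3% of its exon bases lie opposite exons of *Cdc23*, and the strand setting of the counting is not given in the sources used here. *Kif23* (MKLP1) forms the centralspindlin complex with *Racgap1* and bundles the midzone. It read 80.4, 76.3 and 74.5 CPM in control and 2.53, 2.74 and 3.00 CPM in senescent replicates. No values overlapped, and the log2 fold change was -4.80 ± 0.09 (SE, adjusted p = 1.25e-08). *Kif14*, a kinesin-3 that works with citron kinase in the last step of division, changed most of all 40. Control levels of 45.9, 43.1 and 42.9 CPM stood against 0.469, 0.606 and 0.877 CPM in the senescent replicates. Every senescent value was below 1 CPM. The log2 fold change was -6.04 ± 0.17 (SE, adjusted p = 6.89e-08), and the mean CPM was 67.6-fold lower.

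**Figure D2:**
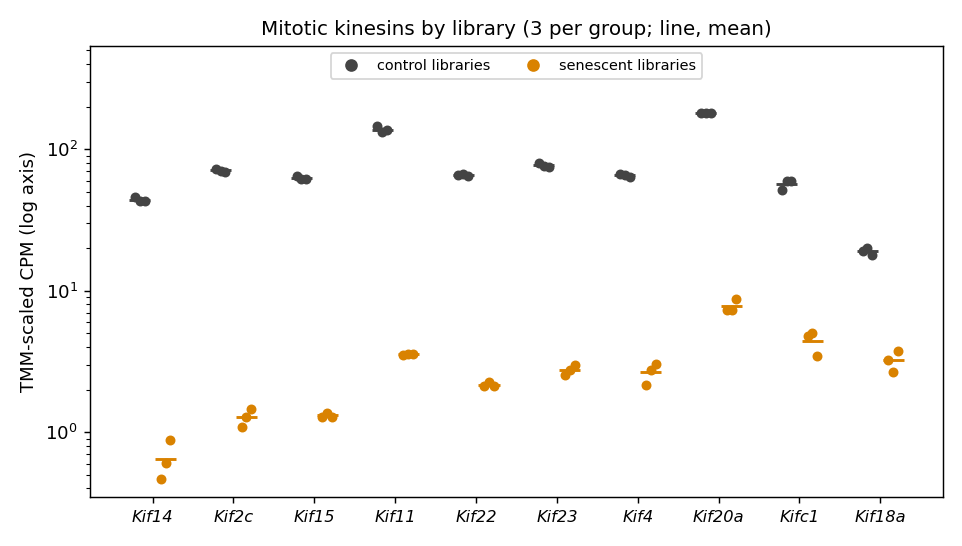
TMM-scaled CPM of the 10 mitotic kinesins in each library on a log axis, ordered by fold change; grey points are the 3 control and orange points the 3 senescent libraries, and lines are group means. The senescent values, from 0.469 CPM for *Kif14* to 8.73 CPM for *Kif20a*, all lie below the lowest control value, 17.9 CPM for *Kif18a*.

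A residue of mitotic kinesin RNA remained in all senescent libraries, summing to 28.5, 29.5 and 31.3 CPM in replicates 1, 2 and 3. Senescent replicate 3 had the highest value for 7 of the 10 and replicate 2 for the other 3. Replicate 1 had the lowest value for 6. Some of these ranks were near ties, as in *Kif11* (3.52, 3.55 and 3.58 CPM). Of the 7 other kinesins lower by more than 2-fold, replicates 1, 2 and 3 were highest for 2, 3 and 2. The proliferation markers *Mki67*, *Top2a*, *Pcna* and *Mcm2* were highest in senescent replicate 3 for 3 of 4. Their sum was 80.9 to 86.0 CPM in senescent and 1285 to 1347 CPM in control libraries. This is a description of 3 libraries, with no test.

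Transcripts of the proteins that recruit, phosphorylate or work beside these motors were lower too. All 15 of 15 listed mitotic partners passed the test, where 34.1% of all tested genes did in this direction, with a median log2 fold change of -4.55. *Kntc1*, a kinetochore protein, changed by -4.89 ± 0.07, *Ccnb1*, cyclin B1, by -5.18 ± 0.07, and *Birc5*, survivin of the Aurora B complex, by -4.95 ± 0.08 (log2, SE). *Racgap1*, the partner of *Kif23*, changed by -3.98 ± 0.06, and *Hmmr*, a spindle assembly factor, by -4.83 ± 0.08. The largest of the 15 decreases was in *Plk1*, a mitotic kinase, at -5.67, and the smallest in *Tpx2*, a spindle assembly factor, at -2.57.

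Promoters were read next because their sequence was not used to choose the genes. RefSeq promoters on GRCm38.p6, from 250 bases before to 50 bases after each start, were matched for 33 of the 41 kinesins, 9 of them mitotic. Both strands were searched for the cell cycle homology region (CHR; TTTGAA, or TTCGAA as a variant), an element known from late cell cycle promoters, and for the CCAAT box (CCAAT), which often stands upstream of it. The windows below run from 90 bases before to 30 bases after the start, 5′ to 3′ on the strand of the gene. Capitals mark each match, written TTCAAA for a CHR and ATTGG for a CCAAT box on the other strand. *Kif11*, *Kif15*, *Kif22*, *Kif23*, *Kif4* and *Kifc1* are shown as the mitotic kinesins with a CHR within 30 bases of the start, and *Kif18b* as a kinesin outside the mitotic list that fell with them. *Kif18a*, the mitotic kinesin that fell least, and *Kif1a*, the kinesin that rose most, are shown for contrast and hold neither element in this window. *Kif26b*, not shown, was higher in senescent cells and holds both elements in the same window, the CCAAT box at -73 and the CHR at -9.
*Kif11* (chr19:37376292-37376411, plus strand): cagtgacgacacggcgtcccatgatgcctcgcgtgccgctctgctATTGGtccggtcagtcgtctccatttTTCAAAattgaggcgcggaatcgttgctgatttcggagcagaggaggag
*Kif15* (chr9:122950991-122951110, plus strand): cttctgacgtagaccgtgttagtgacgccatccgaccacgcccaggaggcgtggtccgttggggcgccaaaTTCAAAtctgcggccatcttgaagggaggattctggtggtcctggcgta
*Kif22* (chr7:127042391-127042510, minus strand): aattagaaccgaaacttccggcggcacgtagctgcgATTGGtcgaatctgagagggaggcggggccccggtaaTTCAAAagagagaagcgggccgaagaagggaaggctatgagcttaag
*Kif23* (chr9:61946770-61946889, minus strand): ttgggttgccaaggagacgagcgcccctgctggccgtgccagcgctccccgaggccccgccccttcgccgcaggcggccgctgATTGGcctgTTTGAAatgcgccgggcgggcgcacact
*Kif4* (chrX:100625975-100626094, plus strand): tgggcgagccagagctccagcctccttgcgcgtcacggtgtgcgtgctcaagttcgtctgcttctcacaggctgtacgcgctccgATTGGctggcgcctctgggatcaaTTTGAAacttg
*Kifc1* (chr17:33890604-33890723, minus strand): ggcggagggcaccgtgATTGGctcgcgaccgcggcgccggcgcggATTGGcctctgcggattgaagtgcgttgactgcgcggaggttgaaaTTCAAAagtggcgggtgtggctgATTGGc
*Kif18b* (chr11:102925095-102925214, minus strand): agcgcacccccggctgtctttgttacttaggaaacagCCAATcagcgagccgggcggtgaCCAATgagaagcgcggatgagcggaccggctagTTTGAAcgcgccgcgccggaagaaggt
*Kif18a* (chr2:109280648-109280767, plus strand): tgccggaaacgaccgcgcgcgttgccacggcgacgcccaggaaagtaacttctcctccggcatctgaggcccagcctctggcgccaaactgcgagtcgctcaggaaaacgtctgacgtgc
*Kif1a* (chr1:93101845-93101964, minus strand): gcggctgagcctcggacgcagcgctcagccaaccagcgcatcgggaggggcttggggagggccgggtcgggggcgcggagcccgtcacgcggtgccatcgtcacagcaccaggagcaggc

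Counted from the RefSeq start site as +1, the first base of the CHR lay at -19 in *Kif11* and *Kif15*, -17 in *Kif22*, +2 in *Kifc1*, +3 in *Kif23*, +4 in *Kif18b* and +20 in *Kif4*. In the full promoters a CHR was found in 8 of 9 mitotic kinesins (88.9%). It was found in 7 of the 28 promoters of 24 other kinesins (25.0%) and in 19.2% of all 32851 promoters. The CCAAT box was in 6 of 9 (66.7%), 11 of 28 (39.3%) and 37.4%, and both elements together in 6 of 9, 5 of 28 (17.9%) and 7.52%. Within 30 bases of the start, a distance chosen after the matches had been seen, the CHR was in 6 of 9 mitotic and 5 of 28 other promoters, and in 3.40% of all. For *Kif14* and *Kif2c*, with the largest decreases, the CHR was at -228 and -103 from the RefSeq start. Some RefSeq starts lie inside the gene as GENCODE M21 annotates it, 1505 bases past the gene start for *Kif14*, 3867 for *Kif2c* and 328 for *Kif4*, so these matches are not upstream of that start. Among promoters whose start was within 250 bases of the GENCODE start, a limit set after seeing the matches, the CHR was in 5 of 6 mitotic (83.3%) and 6 of 26 others (23.1%). Other kinesins with a CHR or its variant near the start were *Kif20b* (+8 and +14), *Kif24* (-26) and *Kifc5b* (+30), all lower in senescent cells, and *Kif26b* (-9), which was higher. The letters around the match in *Kifc5b* are nearly the same as in its near copy *Kifc1*, so these are not separate instances. E2F-like letters (GCGGGAA or GCGCGAA) were in 0 of 9 mitotic promoters, 3 of 28 others and 6.003% of all. No other form of the E2F site was searched, so these counts do not show that such sites are absent. The E-box CACGTG, known to be bound by BMAL1 with CLOCK, was in 0 of 9, 1 of 28 and 7.15%, the single match lying at -116 in the second *Kif1a* promoter, which also holds a CHR at -44 and starts 19471 bases inside the gene. The AP-1 letters TGACTCA or TGAGTCA were in none of the kinesin promoters and in 5.20% of all. A match is a description of letters, and no match says nothing about a factor.

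Outside the mitotic list, 7 kinesins were lower by more than 2-fold, and the 2 largest of these decreases were in genes that also act in division. *Kif18b*, a kinesin-8 that limits the growth of astral microtubules, read 33.9, 37.5 and 35.3 CPM in control and 1.46, 2.02 and 1.48 CPM in senescent replicates. *Kif20b* (MPP1), which serves in the final steps of cytokinesis, was at 72.9, 68.1 and 66.8 CPM and 3.43, 3.39 and 4.73 CPM. Neither overlapped between groups, and the log2 fold changes were -4.42 ± 0.14 (SE, adjusted p = 9.36e-08) for *Kif18b* and -4.16 ± 0.14 (SE, adjusted p = 1.33e-07) for *Kif20b*. *Kifc5b*, the near copy of *Kifc1*, was at 11.9, 13.8 and 14.7 CPM in control and 2.15, 2.02 and 1.17 CPM in senescent replicates. Senescent replicate 3 was lowest, as in *Kifc1*, and the log2 fold change of *Kifc5b* was -2.93 ± 0.21 (SE, adjusted p = 8.79e-06). *Kif24*, a kinesin-13 that keeps cycling cells from forming cilia, gave 11.6, 11.5 and 10.3 CPM and 1.68, 1.74 and 1.94 CPM. All senescent values were well under the controls, with a log2 fold change of -2.63 ± 0.10 (SE, adjusted p = 3.07e-07).

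The other decreases past 2-fold were in genes with different roles or with few counts. *Kif12*, a kinesin-12 best known from kidney and liver epithelium, had 51, 46 and 37 counts in control and 6, 8 and 1 counts in senescent replicates. The values did not overlap, but the small counts leave a wide error, -3.58 ± 0.45 (SE, adjusted p = 0.000202). In CPM these are 1.02, 0.770 and 0.756 and, for the senescent replicates, 0.108, 0.101 and 0.0118. *Kif21b*, a kinesin-4 that pauses microtubule growth, was at 14.7, 15.4 and 14.5 CPM in control and 6.12, 6.16 and 4.61 CPM in senescent replicates. The groups were apart, with a log2 fold change of -1.41 ± 0.12 (SE, adjusted p = 2.48e-05). *Kif19a*, which trims the tips of motile cilia, was low throughout, with 24, 28 and 17 counts in control and 10, 15 and 12 counts in senescent replicates. Its CPM values, 0.481, 0.469 and 0.347 in control and 0.180, 0.189 and 0.142 in senescent replicates, did not overlap. The log2 fold change was -1.35 ± 0.26 (SE, adjusted p = 0.00217). Motile cilium genes summed to 4.47 to 5.09 CPM in control and 5.54 to 5.85 CPM in senescent libraries. Of the 5 tested, 4 were higher, where 36.2% of all tested genes were. Their part in the *Kif19a* result was not tested.

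*Kif1a* rose far more than any other kinesin. It encodes a kinesin-3 that carries synaptic vesicle precursors and dense core vesicles and is best known from neurons. Its gene lies at chr1:93015464-93101951 on mm10. Its levels were 3.25, 2.78 and 2.84 CPM in control replicates 1, 2 and 3 and 90.7, 89.6 and 72.6 CPM in the senescent replicates. The lowest senescent value, in replicate 3, was still far above the highest control. The log2 fold change was 4.84 ± 0.12 (SE, adjusted p = 3.77e-08), and the mean CPM was 28.5-fold higher.

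The kinesin-1 heavy chains, which carry mitochondria, vesicles and RNA along microtubules, were all higher, 3 of 3. *Kif5b*, the form found in most tissues, read 194, 188 and 189 CPM in control and 344, 341 and 435 CPM in senescent replicates. Senescent replicate 3 was highest, the groups did not overlap, and the log2 fold change of 0.97 ± 0.10 (SE, adjusted p = 5.82e-05) was just under 2-fold. *Kif5a*, a form best known from neurons, was at 2.39, 2.88 and 2.64 CPM and 6.26, 6.93 and 5.88 CPM, with no overlap. Its log2 fold change was 1.27 ± 0.11 (SE, adjusted p = 3.06e-05). *Kif5c*, the other neuronal form, had 0.762, 0.569 and 0.409 CPM in control and 3.103, 3.22 and 3.34 CPM in senescent replicates, again apart. Its log2 fold change was 2.47 ± 0.19 (SE, adjusted p = 1.24e-05), from a level under 1 CPM. Of the neuron markers, 5 of 7 tested were higher and 1 was lower, beside 36.2% higher and 34.1% lower among all tested genes. All but 2 of the markers stayed below 3 CPM in mean in either group. The exceptions were *Stmn2*, a microtubule regulator with means of 3.64 ± 0.0869 and 20.3 ± 0.506 CPM, and *Map2*, a microtubule-associated protein that fell from 26.3 ± 1.75 to 8.11 ± 0.602 CPM (SD, n = 3). *Nefl*, *Snap25* and *Rbfox3* were at 0 in every control library and at 1.71, 0.303 and 0.12 CPM in mean in senescent cells. The summed neuron markers were 28.8 to 32.5 CPM in control and 33.0 to 35.7 CPM in senescent libraries, and their part in the *Kif1a*, *Kif5a* and *Kif5c* results was not tested.

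Further increases past 2-fold came from 3 other families. *Kif2a*, a kinesin-13 that takes microtubules apart at their ends, read 56.2, 55.2 and 51.8 CPM in control and 116, 114 and 142 CPM in senescent replicates. Replicate 3 was the highest of the senescent libraries, none overlapped with control, and the log2 fold change was 1.19 ± 0.10 (SE, adjusted p = 1.55e-05). Its direction was opposite to that of *Kif2c* and *Kif24* of the same family. The gene shares 19.2% of its exon bases with *Dimt1* on the opposite strand. *Kif17*, a kinesin-2 that carries receptors in dendrites and cargo in cilia, was at 0.361, 0.368 and 0.511 CPM and 1.84, 1.75 and 1.24 CPM. The groups were apart, with a log2 fold change of 1.96 ± 0.23 (SE, adjusted p = 0.000151), from 18, 22 and 25 counts in the controls. *Kif26a*, a kinesin-11 without motor activity that acts in growth factor signalling, gave 0.120, 0.301 and 0.347 CPM in control and 1.35, 1.51 and 0.758 CPM in senescent replicates. Senescent replicate 3 was lowest, the groups did not overlap, and the log2 fold change of 2.21 ± 0.40 (SE, adjusted p = 0.00144) rests on low levels.

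**Figure D3:**
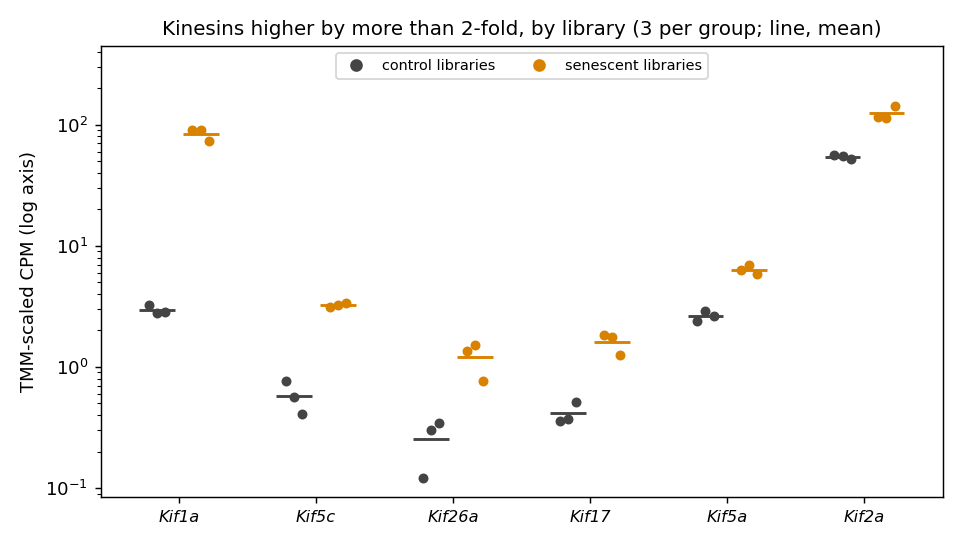
TMM-scaled CPM of the 6 kinesins higher by more than 2-fold, in each library on a log axis; grey points are the 3 control and orange points the 3 senescent libraries, and lines are group means. *Kif1a* goes from 2.95 to 84.3 CPM in mean, and *Kif5c*, *Kif26a* and *Kif17* start below 1 CPM in control cells.

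The remaining kinesins changed by less than 2-fold. Among those lower were *Kif7*, a kinesin-4 of Hedgehog signalling in the primary cilium (-0.91 on the log2 scale), *Kifc2*, a kinesin-14 known from neurons (-0.67), and *Kif9*, of motile cilia (-0.39). Also lower were 3 kinesin-3 motors of endosome and vesicle transport, *Kif16b* (-0.31), *Kif13b* (-0.24) and *Kif13a* (-0.21). Higher were *Kif27*, a ciliary kinesin-4 (0.86), *Kif3b*, a subunit of the heterotrimeric kinesin-2 (0.63), and *Kif21a*, a kinesin-4 that limits microtubule growth (0.53). *Kif26b*, a kinesin-11 of cell adhesion and kidney development (0.30), and *Kif1b*, a kinesin-3 that carries mitochondria and synaptic vesicle precursors (0.26), were also higher. Of these calls, 6 depended on single libraries (adjusted p from edgeR without the library named). *Kifc2* lost its call without control replicate 2 (0.0675) or 3 (0.0906), *Kif1b* without control replicate 2 (0.073) or 3 (0.066), and *Kif26b* without control replicate 3 (0.0574). *Kif13a* lost it without any one of the controls (0.0548 to 0.0752), *Kif13b* without senescent replicate 1 (0.0544), and *Kif27* without control replicate 1 (0.072) or 3 (0.0508) or senescent replicate 2 (0.0647).

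The 5 kinesins that passed in neither direction include members of the same families. *Kif3a*, the partner of *Kif3b* in kinesin-2, had a log2 fold change of 0.01 with a 95% confidence interval from -0.15 to 0.16. *Kif3c*, another kinesin-2 subunit, was at 0.04 (-0.15 to 0.23), and 35.3% of its exon bases lie opposite *1110002L01Rik*. *Kifap3*, the accessory subunit that holds this complex together, was at 68.2 ± 2.41 and 67.4 ± 5.56 CPM (SD, n = 3). *Kifc3*, a minus-end-directed kinesin-14 of cell junctions, was at -0.14 (-0.63 to 0.35), with senescent values of 60.8, 63.1 and 35.1 CPM of which only replicate 3 lay below the controls. *Kif6*, a kinesin-9, was at 0.24 (-0.41 to 0.89) from levels under 1 CPM. *Kif1c*, a kinesin-3 of Golgi and podosome transport, was at 0.28 (0.02 to 0.55) with an adjusted p of 0.0574 by edgeR. Its levels were 247, 272 and 260.0 CPM in control and 336, 355 and 257 CPM in senescent replicates, where replicate 3 alone fell within the control range. Without senescent replicate 3, *Kif1c* was higher at 0.42 (adjusted p = 2.11e-07, edgeR) and *Kif3c* at 0.13 (adjusted p = 0.0425, edgeR). That fit rests on senescent replicates 1 and 2, which were closer to each other than any other libraries of the same group.

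Divided by the deposited gene length, levels can be set side by side across kinesins. In control cells *Kif20a* was highest at 47.6 ± 0.249 CPM per kilobase, followed by *Kif1c* at 35.7 ± 1.73, *Kif22* at 32.0 ± 0.477, *Kif11* at 28.6 ± 1.49 and *Kif5b* at 25.7 ± 0.401 CPM per kilobase (SD, n = 3). Neighbours in this order did not overlap between libraries. In senescent cells *Kif5b* was highest at 50.5 ± 7.25, followed by *Kif1c* at 43.5 ± 7.12, *Kif2a* at 17.6 ± 2.26, *Kif3b* at 15.9 ± 0.68 and *Kifc3* at 14.1 ± 4.14 CPM per kilobase. There *Kif5b* overlapped with *Kif1c*, *Kif2a* with *Kif3b*, and *Kif3b* with *Kifc3*, so the spread between libraries does not resolve their order. Within each senescent library, however, *Kif2a* was above *Kif3b*. *Kif1a* moved from rank 33 of 41 to rank 8, at 0.317 ± 0.0274 and 9.04 ± 1.09 CPM per kilobase, and *Kif20a* from rank 1 to rank 14. The deposited lengths differ from the exon lengths of GENCODE M21 for 22 of the 41 genes. With the latter, *Kif20a* and *Kif1c* kept ranks 1 and 2 in control cells, but *Kif22* moved from 3 to 7 and *Kif23* from 6 to 15.

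**Figure D4:**
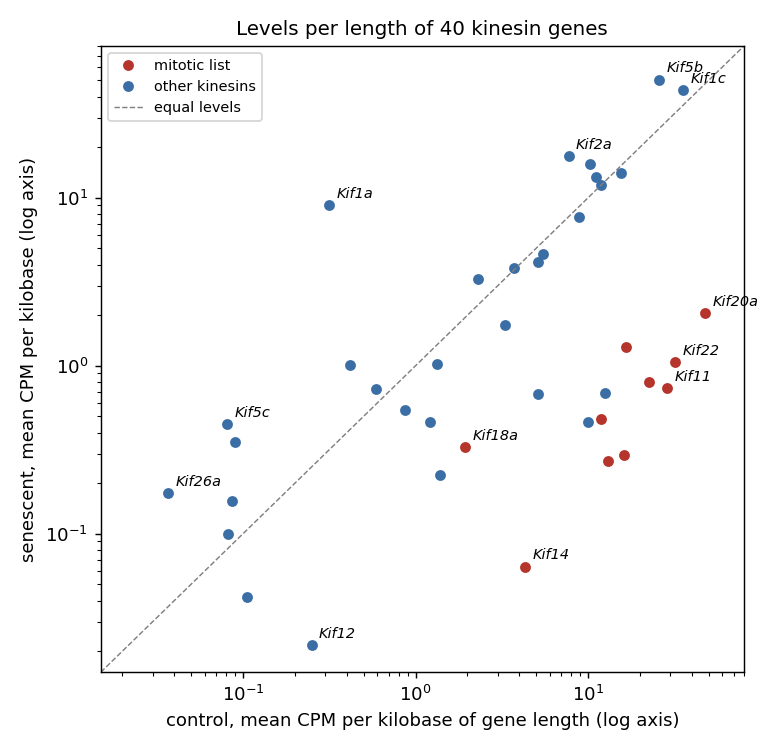
Mean level per kilobase of gene length of the 40 tested kinesins in control (x) and senescent cells (y), both log axes; red points are the mitotic list, blue points the others, and the dashed line marks equal levels. All red points lie below the line, and *Kif1a*, at 0.317 and 9.04 CPM per kilobase, lies farthest above it.

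The mitotic list made up a large part of the summed kinesin level of control cells and little of it in senescent cells. Its share of the summed CPM per kilobase was 52.5%, 51.4% and 51.7% in the control replicates and 3.32%, 3.41% and 3.55% in the senescent replicates. The sum over the mitotic list went from 195 ± 1.9 to 7.38 ± 0.242 CPM per kilobase, and that of the other kinesins from 181 ± 3.02 to 208 ± 2.36 (SD, n = 3). *Kif5b* alone took 6.85 ± 0.13% of the sum in control and 23.5 ± 3.53% in senescent cells, and *Kif1a* 0.0843 ± 0.0075% and 4.19 ± 0.484%. The size of the mitotic share depended on the length used. With GENCODE M21 exon lengths it was 45.9 ± 0.415% in control and 2.79 ± 0.079% in senescent cells, and in CPM not divided by length it was 39.3 ± 0.391% and 1.92 ± 0.0709%.

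**Figure D5:**
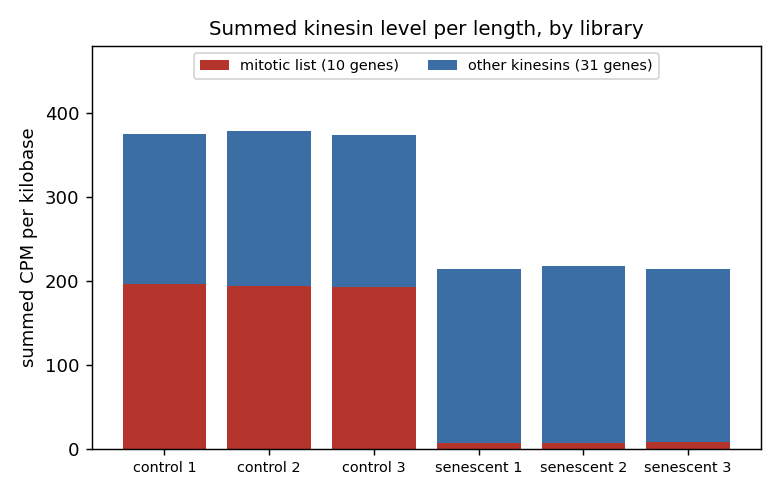
Summed CPM per kilobase of the mitotic list (red) and the other kinesins (blue, stacked) in each library, on an axis from 0. The red part is between 193 and 197 in the controls and between 7.11 and 7.59 in the senescent libraries, while the blue part is between 178 and 211 in all 6.

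The families are small, and 34.1% of all tested genes were lower and 36.2% higher, so the counts by family are a description. All tested members were lower in kinesin-6 (3 of 3), kinesin-8 (3 of 3) and kinesin-12 (2 of 2), and in kinesin-5 and kinesin-10, which have 1 member each. All were higher in kinesin-1 (3 of 3) and kinesin-11 (2 of 2). Kinesin-3 was mixed, with 4 lower, 2 higher and 1 that passed in neither direction, and held both the largest decrease (*Kif14*) and the largest increase (*Kif1a*). Kinesin-2 had 2 of 4 higher and none lower, kinesin-4 had 3 lower and 2 higher, kinesin-13 had 2 lower and 1 higher, and kinesin-14 had 3 of 4 lower. Kinesin-9 had 1 of 2 lower.

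Light chains, cargo adaptors and other partners of the transport kinesins moved in both directions. Of the 18 listed partners in the table, 7 were higher, 2 were lower and 9 passed in neither direction, with a median log2 fold change of 0.16. The 38.9% that were higher is close to the 36.2% of all tested genes, so this count does not set the partners apart. *Fez1*, a kinesin-1 adaptor, was at 1.96 ± 0.07, *Ktn1*, kinectin, at 1.36 ± 0.09, *Arl8a*, a lysosomal GTPase that recruits kinesins, at 0.99 ± 0.07 and *Trak2*, a mitochondrial adaptor, at 0.70 ± 0.06 (log2, SE). *Arl8b*, the close relative of *Arl8a*, was at 0.58 ± 0.08. Those lower were *Klc4*, a kinesin light chain, at -1.19 ± 0.19, and *Trak1*, the other mitochondrial adaptor, at -0.64 ± 0.11. The light chains *Klc1*, *Klc2* and *Klc3* did not pass the test.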

How the data were processed

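RNA-seq was measured in 3 control and 3 senescent MAF libraries, made with a stranded mRNA kit. With the MAPRSeq pipeline, the authors aligned read pairs by STAR to the mm10 genome and used Subread to count them. The deposited values are raw counts for each gene, beside a gene length. The strand setting and the treatment of reads with several matches are not given in the sources used here, so counts of overlapping genes and near-identical copies are uncertain. Columns were assigned to samples by the group letter and replicate number in their names, and 0 columns of values were left unused. Groups were assigned from the sample labels.

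From the deposited counts, 17589 of 43346 genes passed edgeR's filterByExpr, TMM factors scaled the libraries, and a robust quasi-likelihood fit with group as its one term gave two-sided tests (R 4.3.3 with edgeR 4.0.16, the package named in the study's methods). The Benjamini-Hochberg correction covered all genes tested. With 3 libraries against 3, an exact permutation test of a single gene cannot go below p = 0.1. Totals of 50288454 to 82229553 counts set the precision of low genes, and 95% intervals are those of the fit. CPM per kilobase used the deposited length. Promoter sequences are from RefSeq on GRCm38.p6, and gene positions, exon overlaps and transcripts for the search of near copies by blastn from GENCODE M21 on the same assembly. Motor domains in the proteins were not analysed here.

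The members, gene lists and tests were chosen with earlier results of these data known. All 41 members are accounted for, with values in each library for the mitotic list and for other kinesins with an adjusted p under 0.05 and a log2 fold change over 1 in size. Of other lists, counts and at most 5 members with the smallest p were named, and *Plk1*, *Tpx2*, *Klc1* to *Klc4*, *Trak1* and *Kifap3* and the markers given beside results were added with their values known. Alternatives tried were DESeq2 1.42.0, the exact test of edgeR, RLE factors, library size alone, no filter, a minimum of 10 counts in each library, a replicate block and leaving out each library. Summing *Kifc1* and *Kifc5b* was added after seeing the data. The fit was tested on simulated data.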

Additional observations from a re-analysis of the deposited data

How the results depend on the processing

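The counts of lower and higher kinesins stayed within 1.5 times those reported under every alternative run. All 10 mitotic kinesins were lower in each, and the 23 kinesins with a change of more than 2-fold came to 23 to 25 when each library was left out in turn. Without single libraries, 9 to 14 other kinesins were higher and 11 to 13 lower. Over 40 fold changes and 14 settings, 490 results kept direction and call, 16 lost a call, 7 gained one and 6 changed sign, in 11 genes. Not every gene had a result in each setting. The sum of *Kifc1* and *Kifc5b* was counted for *Kifc1* alone, and *Kif12* and *Kif26a* did not reach 10 counts in every library. The sign changes were in genes that had passed in neither direction: *Kif3a* without a filter (-0.0047), and with libraries left out *Kif3a* (from -0.0273 to 0.0398), *Kifc3* (from -0.279 to 0.0922) and *Kif6* (from -0.00748 to 0.472). *Kif1c* passed as higher with RLE scaling (0.31, adjusted p = 0.043), library size alone (0.36, 0.0214), at least 10 counts in every library (0.33, 0.0371), the exact test of edgeR (0.28, 0.0364) and DESeq2 (0.31, 0.0266). With library size alone *Kif13a* (adjusted p = 0.112) and *Kif13b* (0.0579) lost their calls, and *Kif13a* also with at least 10 counts in every library (0.0626). The cause was not tested.

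The deviations of same-numbered replicates from their group means correlated at -0.145, 0.135 and -0.12, not above 0.1 in every pair, so the numbers were not taken to pair the samples. With a replicate block, 22 kinesins were lower and 12 higher, and only *Kif13a* lost its call (-0.21, adjusted p = 0.0574, edgeR). Depth limits *Kif2b*, *Kif12*, *Kif19a*, *Kif26a*, *Kif27* and *Kif6*, which had few counts, and *Kif17* and *Kif5c*, which had few in control cells. The 3 libraries per group limit every error.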

Other observations

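Motors of the same superfamily lie outside the naming rule. *Cenpe*, the kinetochore kinesin CENP-E, had means of 127 ± 6.09 CPM in the controls and 4.79 ± 0.277 CPM in the senescent libraries (SD, n = 3), a log2 fold change of -4.73 ± 0.08 (SE), which lies within the range of the 10 mitotic kinesins. *Stard9*, a kinesin of the centrosome, was at 17.8 ± 1.19 and 10.3 ± 0.782 CPM, a log2 fold change of -0.79 ± 0.09.

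Cytoplasmic dynein and its activator dynactin, which move towards the minus end, had 12 of 21 listed genes higher, 5 lower and 4 that passed in neither direction, with a median log2 fold change of 0.25. These are 57.1% and 23.8%, beside 36.2% higher and 34.1% lower among all tested genes. *Bicd2*, a dynein adaptor, was at 0.72 ± 0.06 and *Dynll2*, a light chain, at 0.95 ± 0.09 (log2, SE). The light chains *Dynlt1b*, at -1.14 ± 0.11, and *Dynlrb1*, at -0.54 ± 0.06, were lower, and the light intermediate chain *Dync1li2* was higher at 0.51 ± 0.06. Of 13 tubulins, the proteins of the track itself, 7 were lower and 5 higher, with a median of -0.28. Of these shares, the 38.5% higher is close to that of all tested genes, and 53.8% were lower. *Tubb2a* fell from 322 ± 14 to 89.3 ± 14.5 CPM, *Tuba1a* from 596 ± 16 to 331 ± 24 CPM, *Tubb2b* from 98.0 ± 4.51 to 45.2 ± 6.45 CPM and *Tuba1b* from 532 ± 16.6 to 271 ± 37.9 CPM, while *Tuba8* rose from 0.941 ± 0.159 to 3.03 ± 0.554 CPM (SD, n = 3).

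Sums of markers of other cell types were 52.5 to 57.7 CPM in control and 45.2 to 50.6 CPM in senescent libraries for Schwann cells, and 8.24 to 9.01 and 18.2 to 21.1 CPM for macrophages. They were 2.70 to 3.45 and 17.3 to 17.98 CPM for keratinocytes, where *Ivl* (0 in every control library, 13.97 ± 0.56 CPM in senescent cells) was the 1 of 3 tested markers that was higher and *Krt10* was at 1.95 ± 0.201 and 1.94 ± 0.0553 CPM. They were 2.53 to 2.93 and 8.03 to 8.45 CPM for endothelium. All 5 tested macrophage and all 5 tested endothelial markers were higher, where 36.2% of all tested genes were. Of 5 tested Schwann cell markers 3 were lower, where 34.1% of all tested genes were, and 0 were higher. Most of the Schwann cell sum was *S100b* (44.4 ± 1.74 and 37.8 ± 1.98 CPM). *Sox10*, not tested, was at 0 in every control library and 0.295 ± 0.177 CPM in senescent cells. Their part in the kinesin results was not tested. Of the senescence markers, *Cdkn1a* and *Cdkn2a* were higher, and *Lmnb1* and *Glb1* lower.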
